A study of Mus musculus with 4 samples.

Results

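Genes that mark neural progenitors in general, or those of the ventral telencephalon, were followed in neurons derived from mouse embryonic stem (ES) cells in a list of 10 symbols, namely Sox1, Sox2, Sox3, Nes, Vim, Gsx1, Gsx2, Olig1, Olig2 and Fabp7. They were taken by symbol and not by their values, and each of the 10 was found among the 34968 gene symbols shared by the 4 libraries of the series. The libraries are bulk RNA-seq of tdTomato+ cells sorted on day 12 of embryoid body differentiation, with 2 libraries from the N/D line and 2 from the N/D/S line, numbered replicate 1 and replicate 2 within each line. Both lines come from a parental ES line of strain C57/BL6, derived from a male embryo, that carries Dlx6-Cre (Dlx6a-Cre in the study's methods) and the Ai9 reporter, and both were differentiated with XAV-939, a Wnt inhibitor, and SAG, a Sonic hedgehog agonist. In both lines a Nestin construct drives Nkx2-1 together with the tTA2S transactivator, which in turn switches on Dlx2 from a TRE element in N/D, or Dlx2 and V5-tagged St18 in N/D/S. The lines were grown from drug-selected colonies, and how many clones gave the libraries is not given in the sources used here. Nothing says that the replicates came from separate differentiations, so a p-value here measures only the spread between these libraries. Levels are in TPM, the abundance of a transcript scaled to its length and to the total of its library, so that different genes may be compared within a library. The depth of the libraries is unknown.

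In the embryo, neural progenitors divide along the ventricle, and their identity is kept by a small set of transcription factors and by the cytoskeleton of their radial fibres. Sox1, Sox2 and Sox3 form the SoxB1 group, which holds cells in the progenitor state and opposes neurogenesis. Nes and Vim encode the intermediate filaments nestin and vimentin, and Fabp7 encodes brain lipid-binding protein of radial glia. Gsx1 and Gsx2 are homeobox factors of ventral telencephalic progenitors, while Olig1 and Olig2 are basic helix-loop-helix factors of ventral progenitors that later mark the oligodendrocyte lineage. As neurons leave the cell cycle these genes are largely switched off, while Dlx6, the gene whose Cre driver labels the sorted cells, is used from late progenitors onwards in the ganglionic eminences. The Cre leaves a lasting reporter signal in the cells that used it.

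The libraries differed in ways that touch every value below. In the library labelled N/D replicate 1, 613 of 6139 genes that reached 10 TPM everywhere else were listed at 0 (9.99%), against 0 to 2 genes in the other libraries. Of the genes with a mean of 1 to 10 TPM in the other libraries, 48.8% were listed at 0 there, and of those with 10 to 100 TPM, 17.1%. St18 stood at 44.4 and 15.9 TPM under the N/D/S label, and at 28.5 and 26.6 TPM under the N/D label, in replicate order, so the St18 level did not separate the lines in these tables and directions rest on the labels. The cells carried the label of neurons, and the neuronal beta-tubulin Tubb3 had 2774, 2455, 2048 and 1509 TPM, where replicates 1 and 2 of N/D/S come before replicates 1 and 2 of N/D, the order used throughout. All 10 genes of a neuronal list exceeded 1 TPM in the 4 libraries. In such bulk libraries, fewer cells that express a gene and less RNA per cell cannot be told apart.

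Fabp7 and Vim were the most abundant of the 10 genes in every library, and Fabp7 together with Vim made up 74.7% to 89.2% of their summed TPM. Averaged over the libraries, the order was Fabp7, Vim, Sox2, Nes, Olig1, Sox3, Sox1, Olig2, Gsx1 and Gsx2, from 431 TPM to 1.12 TPM. Within a library, Fabp7 lay at the 96.1 to 99.6 percentile of all symbols and Vim at the 94.5 to 97.5 percentile. The places of Nes and Olig1 were the least settled, since Nes ranked between 3 and 8 and Olig1 between 4 and 10 of the members depending on the library. The plot of log2(TPM + 1) by library shows these levels side by side.

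**Figure D1:**
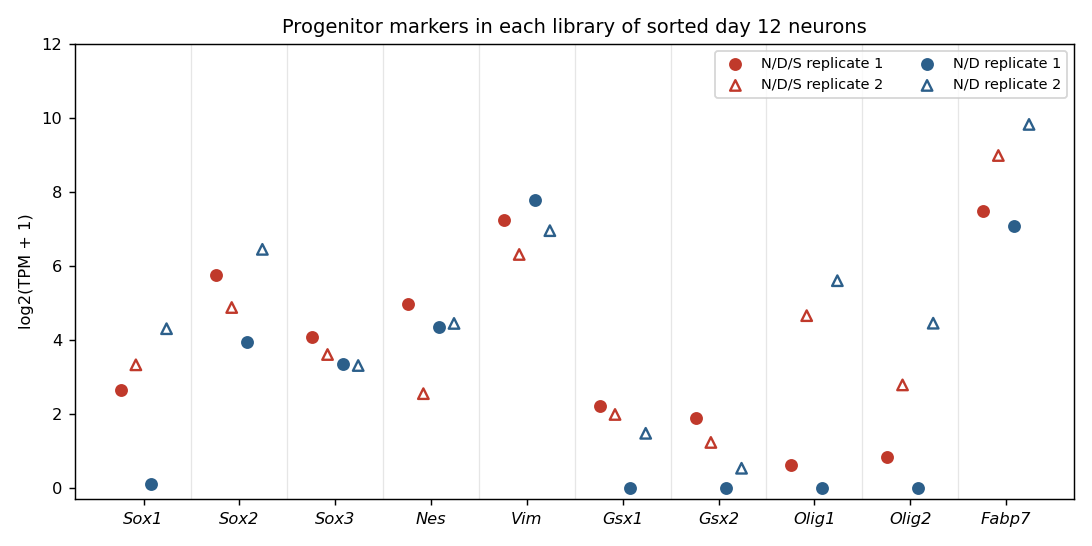
Level of each progenitor marker, as log2(TPM + 1) on the vertical axis, in the 4 libraries (red N/D/S, blue N/D, filled circles replicate 1, open triangles replicate 2). Vim and Fabp7 sit highest in each library, Gsx1, Gsx2, Olig1 and Olig2 are listed at 0 in N/D replicate 1, and Olig1, Olig2 and Fabp7 lie higher in both libraries numbered 2.

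Among the SoxB1 factors, Sox2 was the most abundant in each library. Sox2, on chromosome 3 of GRCm38 from 34650405 to 34652461 on the plus strand, had 52.6, 28.3, 14.5 and 86.3 TPM. The highest and the lowest Sox2 library were thus both labelled N/D, and the N/D/S libraries fell between them. Sox1, on chromosome 8 from 12395295 to 12400126, had 5.29, 9.02, 0.0707 and 18.7 TPM. Its lowest and highest values were also in the N/D libraries. Sox3, on the minus strand of chromosome X from 60891366 to 60893430, had 15.9, 11.2, 9.17 and 8.89 TPM. Sox3 was the steadiest of the 10 genes, its highest library being 1.78 times its lowest, against 5.96 times for Sox2. Its N/D/S libraries lay above its N/D libraries without overlap. Within a library, Sox2 was 9.95, 3.14, 205 and 4.61 times as abundant as Sox1 and 3.31, 2.54, 1.58 and 9.70 times as abundant as Sox3. The ratio of Sox1 to Sox3 was 0.333, 0.809, 0.00771 and 2.11, so Sox1 exceeded Sox3 in N/D replicate 2 and stayed below it in the other libraries.

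The SoxB1 genes are single-exon genes with closely related DNA-binding HMG boxes, which bears on whether short reads can be assigned to 1 of them. The stretch of coding sequence around the longest run shared by Sox1 and Sox2 is shown for the 3 genes (GENCODE M21 transcripts, 5′ to 3′, 120 bases each), with capitals for bases identical in all 3 and lower case for the others.
Sox1: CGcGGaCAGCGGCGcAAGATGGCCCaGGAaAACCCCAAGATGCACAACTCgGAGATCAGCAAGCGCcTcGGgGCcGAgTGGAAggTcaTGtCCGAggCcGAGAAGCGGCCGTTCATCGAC
Sox2: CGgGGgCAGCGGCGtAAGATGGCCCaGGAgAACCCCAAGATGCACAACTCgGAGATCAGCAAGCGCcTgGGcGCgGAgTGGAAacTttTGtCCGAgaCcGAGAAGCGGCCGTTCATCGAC
Sox3: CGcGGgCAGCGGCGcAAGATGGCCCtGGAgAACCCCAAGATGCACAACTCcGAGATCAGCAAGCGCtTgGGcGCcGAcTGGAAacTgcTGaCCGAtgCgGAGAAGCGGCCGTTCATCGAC
These are coding bases 187 to 306 of Sox1, 163 to 282 of Sox2 and 466 to 585 of Sox3, counted from the A of the start codon. Of the 120 bases, 101 were identical in all 3 genes, and pairs of genes matched at 87.5% to 90.0% of them. Over the whole coding sequences, the longest identical run was 38 bases for Sox1 and Sox2, 45 for Sox1 and Sox3 and 32 for Sox2 and Sox3. Counted as words of 31 bases, the default word of kallisto, 18 of the 2027 words of Sox2 (0.888%), 19 of 2035 of Sox3 (0.934%) and 99 of 4802 of Sox1 (2.06%) also occurred in transcripts of another gene. Of those 99 words of Sox1, only 32 were shared with Sox2, Sox3, Sox21 or Sox2ot, and 2734 other genes held at least 1 of the 99. Sox1 and Sox2 each lie within a longer noncoding gene of the same strand, Sox1ot and Sox2ot, whose exons do not overlap theirs. Sox1 also overlaps the exon of Gm25239, a miRNA gene on its strand.

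The libraries of the lines overlapped for both intermediate filament genes. Vim, on chromosome 2 from 13573927 to 13582826 on the plus strand, had 150.1, 78.3, 219.2 and 122.9 TPM. Within each replicate number the N/D/S value of Vim was the lower one, although N/D/S replicate 1 exceeded N/D replicate 2. Nes, on chromosome 3 from 87971078 to 87980451, had 30.2, 4.84, 19.2 and 20.8 TPM. The N/D libraries of Nes lay within 1.08 times of each other, while the N/D/S libraries, 6.23 times apart, held both its highest and its lowest value. The ratio of Vim to Nes within a library was 4.98, 16.2, 11.4 and 5.92. For orientation, the 235 bases of GRCm38.p6 before the Nes start site are shown (RefSeq, chr3:87970843-87971077, plus strand).
Nes: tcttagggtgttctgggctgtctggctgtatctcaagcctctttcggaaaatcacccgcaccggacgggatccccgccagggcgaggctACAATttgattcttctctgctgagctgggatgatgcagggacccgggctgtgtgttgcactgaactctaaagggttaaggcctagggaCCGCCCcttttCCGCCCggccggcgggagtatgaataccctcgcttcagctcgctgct
Capitals mark letters found by a search of both strands for 5 motifs. These were the TATA box with letters TATAAA, the CCAAT box, the GC box with letters GGGCGG, an E-box with letters CAGCTG, and a core bound by Sox factors with letters ACAAT. Here they are a Sox core 161 bases and GC boxes 73 and 62 bases before the RefSeq start. Such matches are common, since of 32851 windows of 250 bases before a RefSeq start, 27.7% held ACAAT and 32.7% GGGCGG on either strand.

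Fabp7, on chromosome 10 from 57784881 to 57788450 on the plus strand, had 179.1, 505.6, 133.6 and 906.5 TPM. The libraries numbered 2 both lay above those numbered 1, with a factor of 2.82 between the N/D/S libraries and of 6.78 between the N/D libraries. As Fabp7 was higher and Vim lower in the libraries numbered 2, the ratio of Fabp7 to Vim was 1.19 and 0.609 in the libraries numbered 1 and 6.46 and 7.38 in those numbered 2, given for N/D/S and N/D in turn. The ratio of Fabp7 to Nes moved in the same way, from 5.94 and 6.95 to 104.5 and 43.6. These ratios are taken within a library and do not depend on scaling between libraries. The 208 bases before the Fabp7 start sites are shown because Fabp7 was among the genes that moved with replicate number (RefSeq, GRCm38.p6, chr10:57784673-57784880, plus strand, capitals as for Nes).
Fabp7: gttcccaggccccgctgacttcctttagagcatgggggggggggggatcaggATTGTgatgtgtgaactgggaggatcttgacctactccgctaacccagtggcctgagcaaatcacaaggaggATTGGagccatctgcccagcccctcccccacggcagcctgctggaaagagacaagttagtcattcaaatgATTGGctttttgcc
In this stretch a Sox core lay 198 bases and CCAAT boxes lay 126 and 56 bases before the RefSeq start. Of the 32851 windows, 33.8% held CCAAT on either strand.

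The homeobox genes had the lowest mean levels of the 10. Gsx1, on chromosome 5 from 147188696 to 147190947, measured 3.61 and 2.95 TPM across N/D/S, 1.78 TPM in N/D replicate 2, and was listed at 0 in N/D replicate 1. Gsx2, on the same chromosome from 75075601 to 75077893, had 2.68, 1.34 and 0.443 TPM and was also listed at 0 in N/D replicate 1. For both genes the N/D/S libraries lay above the N/D libraries, and in replicate 2, where each library had a value above 0, N/D/S had 1.66 times the Gsx1 and 3.03 times the Gsx2 of N/D. Gsx1 exceeded Gsx2 by a factor of 1.35 to 4.02 where they were above 0. Gsx2 reached 1 TPM in the N/D/S libraries only and passed the filter on low values through them. At these levels, 48.8% of genes were listed at 0 in N/D replicate 1.

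Olig1 and Olig2 lie near each other on chromosome 16, Olig2 from 91225457 to 91228677 and Olig1 from 91269772 to 91271933, both on the plus strand. Olig1 measured 0.524 and 24.2 TPM across N/D/S, 47.5 TPM in N/D replicate 2, and was listed at 0 in N/D replicate 1. Olig2 had 0.795, 5.88 and 20.9 TPM in the same libraries and was listed at 0 in N/D replicate 1. Both genes were thus under 1 TPM in the libraries numbered 1 and above 5 TPM in the libraries numbered 2, whichever the line. Between the N/D/S libraries alone, which do not include the library with many zeros, Olig1 differed by a factor of 46.1 and Olig2 by 7.40. Olig1 was 4.11 and 2.28 times as abundant as Olig2 in the libraries numbered 2. Olig1 overlaps exons of Gm15966, a noncoding gene on the opposite strand, with which it shares 127 of 2132 words of 31 bases (5.96%), and without strand their reads cannot be told apart there. Olig2 shared no word with another gene. The 157 bases before the Olig2 start sites are shown (RefSeq, GRCm38.p6, chr16:91225300-91225456, plus strand, capitals as for Nes).
Olig2: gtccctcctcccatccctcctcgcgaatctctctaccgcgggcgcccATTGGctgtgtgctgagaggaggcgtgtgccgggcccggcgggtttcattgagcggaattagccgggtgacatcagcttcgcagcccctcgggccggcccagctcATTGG
In this stretch CCAAT boxes lay 203 and 98 bases before the RefSeq start of Olig2. Nearer to that start, outside the printed stretch, the search also found a TATA box at 8, GC boxes at 60 and 53 and a Sox core at 67 bases.

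The comparison of the lines asks whether added St18 changes gene expression in these neurons. None of the 10 genes differed between N/D/S and N/D beyond the spread of the libraries, by limma on log2(TPM + 1) with Benjamini-Hochberg adjustment over the 12975 genes tested. The lowest adjusted p among the members was 1.00, and over all genes 0.0% passed an adjusted p of 0.05, with 8 genes at an unadjusted p under 0.05 (0.0617%). The members with the largest differences were Gsx1 at 1.36 (standard error 1.03) and Gsx2 at 1.29 (standard error 0.98), and since they were listed at 0 in N/D replicate 1 these values depend on the added 1 TPM. With 0.1 TPM added instead they were 2.96 and 3.10, and with quantile normalization 0.65 and 0.56. On the same log2 scale, Sox1 was at 0.79 (95% interval −2.72 to 4.29), Sox3 at 0.51 (−1.76 to 2.79) and Sox2 at 0.11 (−2.69 to 2.91). Nes was at −0.64 (−3.36 to 2.08), Vim at −0.59 (−2.98 to 1.79), Olig2 at −0.41 (−4.21 to 3.39), Fabp7 at −0.21 (−3.21 to 2.79) and Olig1 at −0.17 (−5.07 to 4.74). These intervals leave room for several-fold differences either way, so the lines are not shown to be alike. Of the 10 differences 5 were above 0, with a median of −0.03, beside a median of 0.26 and 61.4% above 0 over all genes tested. The members' median was −0.91 with N/D replicate 1 left out, 1.26 with N/D replicate 2 left out and 0.62 with a pseudocount of 0.1. With upper quartile scaling the Sox2 difference was −0.09, with quantile normalization the Sox1 difference was −0.42, and with N/D replicate 1 left out Sox2 was at −1.14 and Sox1 at −1.31. A variance trend in limma let 0 members and 0.0462% of all genes pass, with 0.0385% of all genes higher in N/D/S.

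**Figure D2:**
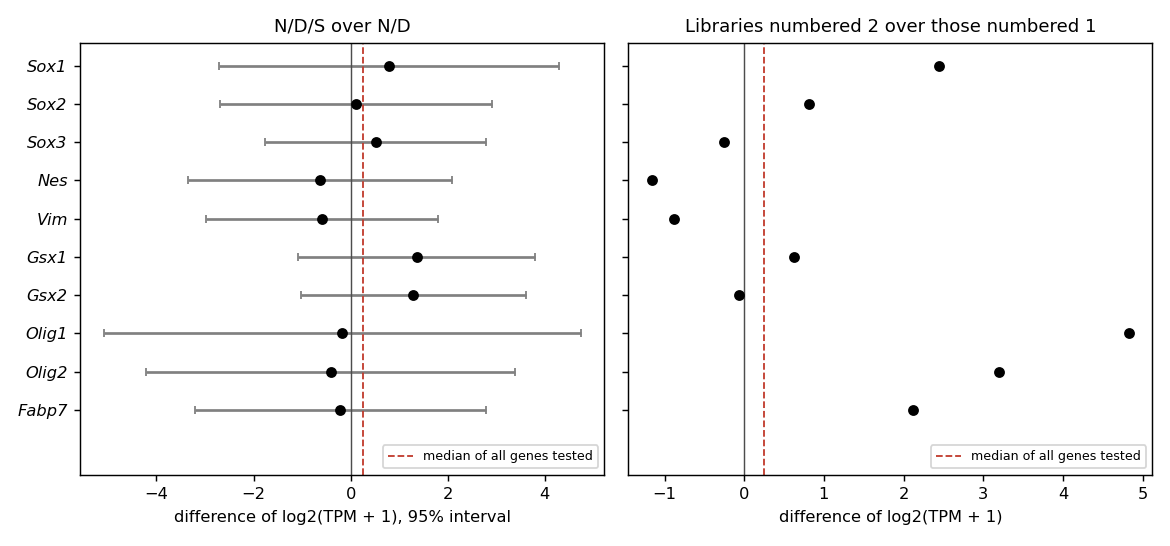
Difference of log2(TPM + 1) for each progenitor marker between the lines (left) and between libraries numbered 2 and 1 (right), with 95% intervals from limma on the left; the dashed line is the median of all genes tested. On the left every interval includes 0; on the right, where no interval is drawn because the comparison was chosen after the values were seen, Olig1 lies highest at 4.82 and Nes lowest at −1.15.

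Sox3 and Gsx1 lay higher in both N/D/S libraries than in both N/D libraries, and no member lay lower without overlap. Over all genes tested, 8.69% lay above and 8.23% below in this way. Gsx2 also lay above, but it had passed the filter through N/D/S only, so it is not read against that share. With upper quartile scaling or quantile normalization, Sox3 overlapped between the lines and Gsx1 did not. Deviations from the line means of same-numbered libraries correlated at 0.02 across genes. This does not settle whether such libraries share a batch, so libraries with the same number are set side by side only as values. In that view 6 members (Sox1, Sox2, Nes, Olig1, Olig2 and Fabp7) were higher in N/D/S in replicate 1 and lower in replicate 2. That pattern was shared by 56.6% of all genes tested. Sox2 showed it with differences of 1.79 and −1.57 on the log2(TPM + 1) scale, and Nes with 0.62 and −1.90. Vim differed by −0.54 and −0.64, where 17.9% of all genes were lower in both, and Sox3 by 0.73 and 0.30, where 15.9% were higher in both. With 2 libraries in each line, the smallest two-sided p of an exact permutation test is 0.333. Leaving out N/D replicate 2 left Sox1 at 2.89 (limma, adjusted p = 0.0334), against N/D replicate 1 as the lone N/D library, where Sox1 had 0.0707 TPM. The spread between samples in that fit comes from the N/D/S libraries alone, and the lone library is assumed to vary like them. In that fit 25.0% of all genes tested passed, with 22.9% higher in N/D/S, against 1 of 8 members.

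**Figure D3:**
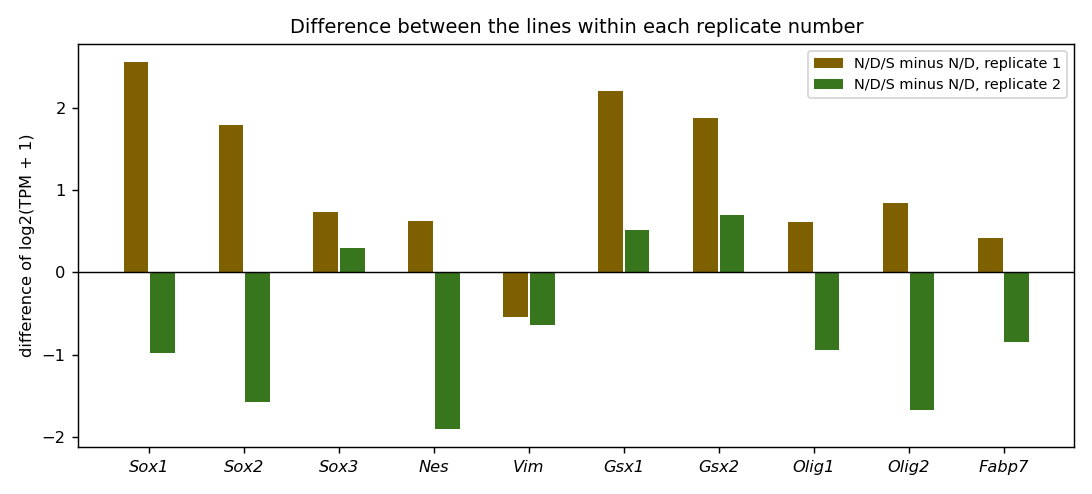
Difference of log2(TPM + 1) between the N/D/S and the N/D library of replicate 1 (brown bars) and of replicate 2 (green bars) for each progenitor marker. Bars point in opposite directions for Sox1, Sox2, Nes, Olig1, Olig2 and Fabp7, upwards in both for Sox3, Gsx1 and Gsx2, and downwards in both for Vim.

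The members were also set against replicate number, a comparison chosen after the values had been seen, so it is given as a description with no p for any member. Fabp7 and Sox1 were higher in both libraries numbered 2 than in both numbered 1, which was so for 14.7% of all genes tested, and Vim was lower in both, as were 14.8%. Olig1 and Olig2 were also higher in both, but they passed the filter on low values only through the libraries numbered 2 and are not read against that share. The differences of replicate 2 over replicate 1, on the log2(TPM + 1) scale, were 4.82 for Olig1, 3.19 for Olig2, 2.44 for Sox1 and 2.12 for Fabp7. Vim was at −0.88, Nes at −1.15, Sox2 at 0.81, Gsx1 at 0.63, Sox3 at −0.26 and Gsx2 at −0.06, beside 59.8% of all genes above 0. Within N/D/S alone, without the library that lists many genes at 0, the differences were 4.05 for Olig1, 1.94 for Olig2, 1.49 for Fabp7 and 0.67 for Sox1. The 2 tables of each replicate number list the same number of symbols, 35197 for replicate 1 and 35204 for replicate 2, while the labels name no batch.

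Markers of other cell types differed between the replicate numbers alongside Olig1, Olig2 and Fabp7. Of the 6 pluripotency markers, summed TPM was 3.96 and 0.253 in the libraries numbered 1 and 292.6 and 184.7 in those numbered 2, for N/D/S and N/D in turn. Dppa5a, a gene of pluripotent cells, had 3.03 TPM in N/D/S replicate 1, 265.5 and 164.2 TPM in the libraries numbered 2, and was listed at 0 in N/D replicate 1. Pou5f1, the pluripotency factor Oct4, was under 0.1 TPM in the libraries numbered 1 and had 19.5 and 7.55 TPM in those numbered 2. The 7 oligodendrocyte lineage markers summed to 24.1 and 0.00315 TPM in the libraries numbered 1 and 58.8 and 138.4 TPM in those numbered 2. Sox10, a defining factor of that lineage, had 0.29 TPM in N/D/S replicate 1 and 3.65 and 10.7 TPM in the libraries numbered 2. Pdgfra, which marks oligodendrocyte precursors, measured 0.47 and 0.07 TPM across N/D/S, 2.83 TPM in N/D replicate 2, so it was under 1 TPM in N/D/S replicate 2, where Olig1 had 24.2 TPM. The 7 astrocyte markers summed to 41.1 and 5.62 TPM against 86.8 and 99.6 TPM, with Gfap listed at 0 in the libraries numbered 1 and at 5.18 and 8.65 TPM in those numbered 2. Not all members moved this way. Slc1a2 fell in N/D/S, from 7.23 TPM in replicate 1 to 1.60 TPM in replicate 2. Aqp4 was above 0 in N/D replicate 2 only, and S100b hardly differed in N/D, at 5.31 and 5.36 TPM. Hba-a1, an erythroid globin gene, was listed at 0 in the libraries numbered 1 and had 14.9 and 14.2 TPM in those numbered 2. Among the 5 erythroid and immune markers, the globin gene Hbb-bt moved likewise, with 6.24 and 5.10 TPM in the libraries numbered 2. The immune genes ran otherwise in N/D/S for Aif1, with 1.24 TPM in replicate 1 and a listing at 0 in replicate 2, and for Ptprc, with 0.104 and 0.053 TPM. The 8 mesenchymal and endothelial markers, of cell types that also use Vim, summed to 13.5, 30.8, 38.8 and 33.7 TPM, of which Pecam1 made up 38.8 TPM in N/D replicate 1, while the endothelial genes Cdh5 and Cldn5 stayed under 0.1 TPM. In the same list the fibrillar collagen genes Col1a1 and Col3a1 were higher in both libraries numbered 2, Col3a1 with 9.49 and 18.2 TPM there against 2.14 TPM in N/D/S replicate 1 and a listing at 0 in N/D replicate 1. Col1a2 ran otherwise in N/D/S, with 4.85, 4.04, 0.00773 and 5.39 TPM, as did Pdgfrb, a pericyte marker, with 1.02 and 0.398 TPM. The neuronal list ran the other way, at 6611 and 5739 TPM in the libraries numbered 1 and 3779 and 4277 TPM in those numbered 2, sums carried mostly by Tubb3, Stmn2 and Gap43. In N/D/S all 10 neuronal genes were lower in replicate 2, whereas in N/D 5 of the 10 (Map2, Snap25, Syt1, Elavl3 and Rbfox3) were higher in replicate 2. The part of any of these cell types in the values of Olig1, Olig2, Sox1 or Fabp7 was not tested.

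**Figure D4:**
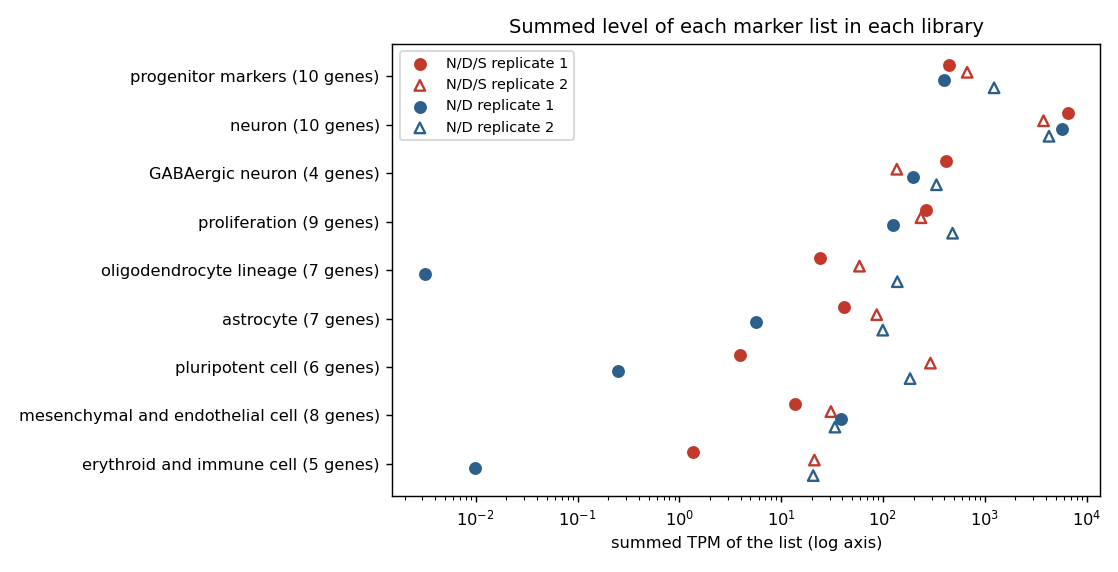
Summed TPM of each marker list on a logarithmic axis in the 4 libraries (red N/D/S, blue N/D, filled circles replicate 1, open triangles replicate 2). Pluripotency, oligodendrocyte and astrocyte markers and the joint list of erythroid and immune markers sum higher in both libraries numbered 2, and neuronal markers sum higher in both numbered 1.

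Other genes of the progenitor programme were described by lists. Of 15 radial glia and neural stem cell genes, 14 passed the filter on low values, and 0 differed between the lines at an adjusted p of 0.05 by limma. Their median difference between the lines was 0.52 on the log2(TPM + 1) scale, beside 0.26 over all genes, with 8 above 0 and 6 below. That median was −0.49 with at least 1 TPM in every library, −0.48 with quantile normalization, −0.79 with N/D replicate 1 left out and 1.76 with N/D replicate 2 left out. Msi1 and Lix1 lay higher in both N/D/S libraries and Ptprz1 lower, 2 and 1 of the 14 beside 8.69% and 8.23% of all genes. The glial glutamate transporter gene Slc1a3 had 5.46, 7.17, 0.08 and 13.5 TPM, and the transcription factor gene Pax6 14.1, 7.33, 25.4 and 13.7 TPM. By replicate number, Slc1a3, Hopx, Ttyh1, Dbi and Mfge8 were higher in both libraries numbered 2 and Pax6 was lower in both, 5 and 1 of the 14 beside 14.7% and 14.8% of all genes. Hopx hardly differed between the N/D libraries, at 10.47 and 10.51 TPM. Sox21, whose transcripts share words of 31 bases with Sox2, had 8.30, 6.35 and 16.8 TPM and was listed at 0 in N/D replicate 1.

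Notch signalling keeps neighbouring progenitors from differentiating, and 13 of its 16 listed genes passed the filter. Of these, 0 differed at an adjusted p of 0.05 by limma, 7 were above 0 and the median difference between the lines was 0.09, beside 61.4% above 0 and a median of 0.26 over all genes. With 1 library left out the Notch median ran from −0.17 to 0.41. Hes5, a target gene of Notch, had 61.8, 69.2 and 22.6 TPM and was listed at 0 in N/D replicate 1, and it was the only one of them at an unadjusted p under 0.05 (limma, 0.0446, adjusted p = 1.00), where 0.0617% of all genes were. The ligand gene Dll3 had 30.98, 30.1 and 24.6 TPM and was also listed at 0 in N/D replicate 1, while its relative Dll1 had 20.6, 8.61, 48.4 and 13.6 TPM. By replicate number, Id1, an inhibitor of basic helix-loop-helix factors, had 2.25 TPM in N/D/S replicate 1 against 40.3 and 13.4 TPM in the libraries numbered 2 and was listed at 0 in N/D replicate 1. With Hes6, Hey1 and Id3 it made 4 of the 13 that were higher in both libraries numbered 2, beside 14.7% of all genes, while Dll1 and Hes1 were the 2 that were lower in both, beside 14.8%.

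The 11 ventral telencephalic factors and the 9 proliferation genes were described in the same way. Of the former, 10 were tested and 0 differed at an adjusted p of 0.05 by limma, with a median difference between the lines of 0.28. That median fell below 0 when a replicate 1 library was left out, to −0.50 for the N/D one and −0.25 for the N/D/S one, and was 0.96 with N/D replicate 2 left out. Dlx2, which both lines carry as a transgene, had 258.6, 147.5, 71.1 and 187.8 TPM, and Lhx6, a factor of postmitotic medial eminence neurons, 114.9, 33.0, 30.8 and 74.9 TPM. Cdk1, a kinase of dividing cells, had 26.6, 46.3 and 60.2 TPM and was listed at 0 in N/D replicate 1, whereas Pcna, a replication factor, had 72.5, 67.5, 61.0 and 106.1 TPM. Of the 9 proliferation genes 4 were above 0, with a median difference between the lines of −0.18 and 0 at an adjusted p of 0.05 by limma. That median was 0.58 with a pseudocount of 0.1 and 1.91 with N/D replicate 2 left out. Top2a and Mcm2 lay lower in both N/D/S libraries, 2 of the 9 beside 8.23% of all genes. Sox4 and Sox11, relatives of the SoxB1 group that are used in young neurons, exceeded Sox2 in each library, with 313.8, 96.7, 141.6 and 355.6 TPM and 124.6, 31.3, 118.9 and 132.4 TPM. The ratio of Tubb3 to Sox2 within a library was 52.7, 86.6, 141.5 and 17.5. N/D replicate 2 thus had the most Sox2 for its Tubb3, and N/D replicate 1 the least.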

How the data were processed

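Bulk RNA-seq of sorted tdTomato+ neurons was analysed in 4 libraries. RNA was poly-A selected, and the authors used kallisto 0.44.0 to assign reads to mouse transcripts (GRCm38 per the labels; the transcriptome release is not given in the sources used here). The authors deposited TPM per gene symbol and library. How transcripts were combined into genes is not described. TPM keep no counts, so depth is unknown and no interval from counts is given. Tables were joined on symbol; 26 rows per table whose symbols had become dates were left out.

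A gene entered the test when 2 or more libraries reached 1 TPM. Testing used limma 3.58.1 in R 4.3.3 on log2(TPM + 1), 2 libraries against 2, without covariates, with Benjamini-Hochberg adjustment and a threshold of 0.05; sleuth, which the authors used, was not used here. All 10 members passed the filter, Olig1 and Olig2 only through the libraries numbered 2 and Gsx2 only through N/D/S. Deviations from the line means of same-numbered libraries correlated at 0.02 across genes, so the numbers were not taken as pairs. All members are named, with genes of lists fixed beside them and any of the 5 largest changes each way past the threshold, of which there were none. The members and lists were chosen with earlier results of these data known. Positions and words of 31 bases came from GENCODE M21 (GRCm38), and sequences before start sites, found for 8 of the 10 members, from RefSeq (GRCm38.p6). Alternatives were other pseudocounts, filters and scalings, a natural log scale, a variance trend, a block and leaving out each library. Other steps ran in Python 3.11.15, pandas 2.3.3 and matplotlib 3.10.9.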

Additional observations from a re-analysis of the deposited data

How the results depend on the processing

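Between the lines, genes that passed adjustment were 0 higher and 0 lower in every alternative with all libraries except the variance trend, where 5 were higher and 1 lower, none of them a member. With 1 library left out they ranged from 0 to 2664 higher and from 0 to 245 lower. The highest came without N/D replicate 2, where only N/D replicate 1 stood for its line. By replicate number, 0 genes passed adjustment in limma with all libraries, and 260 had an unadjusted p under 0.05. The variance trend gave 12 higher and 9 lower and leaving out a library gave 0 to 3771 higher and 0 to 539 lower. Every alternative to the comparison by replicate number was chosen after the values were seen. Replicate numbers were not taken as pairs, and whether same-numbered libraries share a batch is not known. With replicate number as a block, the differences between the lines kept their values (Gsx1 1.36, Sox2 0.11, Nes −0.64), and no call changed.

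Between the lines, Sox3, Vim and Gsx1 had the same sign in each alternative that tested them. Gsx1 ranged from 0.62 to 2.09 with 1 library left out and from 0.65 with quantile normalization to 2.96 with a pseudocount of 0.1. Gsx2, which passed the filter only through N/D/S, ran from 0.56 to 3.10 under those last settings. Sox1 was at −0.42 with quantile normalization, Sox2 at −0.087 with upper quartile scaling and −0.0012 with quantile normalization. Olig1 was at 0.84 and 0.038 with pseudocounts of 0.1 and 0.5, 0.038 on the natural log scale, 0.038 with median-of-ratios and 0.13 with upper quartile scaling, and Olig2 at 0.68 with a pseudocount of 0.1. With 1 library left out, Sox1 ranged from −1.31 to 2.89, Sox2 from −1.14 to 1.36, Nes from −1.85 to 0.57, Olig1 from −2.97 to 1.85, Olig2 from −2.64 to 0.56 and Fabp7 from −1.59 to 1.17. By replicate number, Gsx2 was at 0.75 and 0.063 with pseudocounts of 0.1 and 0.5, 0.063 on the natural log scale, 0.12 with median-of-ratios and 0.18 with upper quartile scaling. With 1 library left out, Gsx2 ranged from −1.0 to 0.29, Gsx1 from −0.48 to 1.73, Sox2 from −0.083 to 1.71 and Sox3 from −0.62 to 0.11. The cause of these changes was not tested.

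For the lists, the median of the 10 members by replicate number, 0.72, was −0.26 for the 5 that reached 1 TPM in every library. It was −0.28 to 1.73 with 1 library left out. Between the lines, the Notch list was at −0.39 with at least 1 TPM in every library. With 1 library left out, the medians ranged from −0.95 to 1.91 for proliferation, −2.18 to 3.86 for the oligodendrocyte lineage, −1.67 to 5.03 for pluripotency and −0.73 to 2.43 for mesenchymal and endothelial genes. Each end of the pluripotency range rested on 1 gene that passed the filter there, against 4 genes with all libraries. Sox1, Gsx1, Gsx2, Olig1 and Olig2 fell outside that stricter filter. The median of all genes between the lines, 0.26, was 0.14 with upper quartile scaling and −0.05 with quantile normalization. How far depth limits the detection of these 5 genes is not known.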
